A study of Mus musculus with 4 samples.

Results

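RNA of 8 genes known from neural progenitors and neurons was followed through a RUNX1 RNA immunoprecipitation of endothelial-sorted embryonic cells. The genes were taken by name, as a list of Nefm, Nefl, Sox2, Sox11, Map1b, Stmn1, Nes and Dcx, and make up 8 of 55573 gene identifiers in the count table. The list was chosen with earlier results of these data known. All 8 were found and all 8 passed the filter on low counts. The source was the caudal part of wild-type (WT) C57BL/6 mouse embryos at embryonic day 10 (E10.0), from which Cd31+ cells were isolated by fluorescence-activated sorting. CD31 is the surface protein Pecam1 of endothelial cells and some blood cells. In RNA immunoprecipitation sequencing (RIP-seq), an antibody on beads recovers a protein with the RNA attached to it, and that RNA is sequenced. The 2 groups differed in the antibody, which was against Runx1 in 2 libraries and a non-specific IgG in the other 2. Genotype, strain, age and sort were the same in all 4. The labels name no number of embryos and do not say that the replicates came from separate sorts, so p-values rest on a spread between libraries that may be purely technical.

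Neural progenitors of the early neural tube are kept in a dividing state by SOX transcription factors of the B1 group, among them Sox2, and carry the intermediate filament protein nestin. As they leave the cell cycle, SOX factors of the C group, among them Sox11, act with proneural factors, and the cells take on microtubule-binding proteins such as doublecortin and Map1b and then neurofilaments. The genes differ in how restricted they are to this lineage. Neurofilament and doublecortin RNAs are largely neuronal, whereas Stmn1, Sox11, Map1b and Nes are also found in dividing cells, mesenchyme or young vessels of the embryo.

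Depth was 1675488 and 1887301 gene counts in the Runx1 libraries, against 3843318 and 2482045 in the IgG libraries. Levels are given as CPM, counts per 1000000 gene counts, on which 3 counts correspond to between 0.781 and 1.79 CPM. All 20 endothelial markers had counts, but so had every gene on the mesenchymal, epithelial, erythroid and macrophage lists, so detection does not single out the labelled lineage. Pecam1 stood at 93.1 and 103 CPM in the Runx1 libraries, against 99.9 and 79.4 CPM in the IgG libraries. Kdr, a receptor for vascular endothelial growth factor, stood at 836 and 663 against 863 and 873 CPM. The summed level of the 20 endothelial markers ran from 1887 to 2212 CPM over the 4 libraries. In such bulk libraries, fewer cells of a type, less RNA per cell and less recovery on the beads cannot be told apart. None of the 4 libraries is of input RNA, so levels are those of recovered RNA. Markers of other lineages were counted as well, with summed levels of 1333 to 1497 CPM for 11 mesenchymal genes, 469 to 914 for 12 erythroid genes, 161 to 193 for 8 epithelial genes and 87.0 to 228 for 10 macrophage genes. The mesenchymal receptor gene Pdgfra stood at 382 and 393 against 473 and 430 CPM, and the collagen gene Col3a1 at 465 and 521 against 344 and 338 CPM.

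Sequence set the limits of what could be told apart among these genes, and the stretches concerned are shown because they decide whether a count can belong to a different gene. The neurofilament genes Nefl and Nefm are neighbours on chromosome 14 of mm10 (GRCm38) and lie on opposite strands. The last exon of 1 of the 2 annotated Nefm transcripts runs across the first exon of Nefl for 1108 bases (chr14:68083863-68084970), which is 32.8% of the Nefl transcript. The strand setting of the counting is not given in the sources used here, so counts from this exon could have gone to either gene. The end of the overlap is given below on the plus strand, the sense strand of Nefl, at chr14:68084851-68085000, within its coding sequence. The 120 capitals are read in the opposite direction in that Nefm transcript, and the 30 bases in lower case lie in no annotated exon of Nefm.
Nefl: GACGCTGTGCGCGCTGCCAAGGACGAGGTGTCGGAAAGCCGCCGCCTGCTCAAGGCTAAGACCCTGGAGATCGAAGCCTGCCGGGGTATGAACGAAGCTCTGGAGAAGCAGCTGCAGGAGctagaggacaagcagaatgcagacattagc
The pair of SOX genes, by contrast, share the DNA-binding HMG box without being near-identical. Their most similar stretch was 242 bases long, at chr3:34650534-34650775 (plus strand) and chr12:27342031-27342272 (minus strand), and 166 bases (68.6%) were the same. Capitals mark the bases that both genes share.
Sox2: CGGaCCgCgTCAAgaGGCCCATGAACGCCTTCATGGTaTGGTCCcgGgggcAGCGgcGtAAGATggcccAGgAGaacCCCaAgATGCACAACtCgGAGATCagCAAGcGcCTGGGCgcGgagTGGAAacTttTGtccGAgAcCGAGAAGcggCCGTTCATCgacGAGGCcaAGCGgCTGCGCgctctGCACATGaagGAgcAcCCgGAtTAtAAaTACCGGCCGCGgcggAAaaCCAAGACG
Sox11: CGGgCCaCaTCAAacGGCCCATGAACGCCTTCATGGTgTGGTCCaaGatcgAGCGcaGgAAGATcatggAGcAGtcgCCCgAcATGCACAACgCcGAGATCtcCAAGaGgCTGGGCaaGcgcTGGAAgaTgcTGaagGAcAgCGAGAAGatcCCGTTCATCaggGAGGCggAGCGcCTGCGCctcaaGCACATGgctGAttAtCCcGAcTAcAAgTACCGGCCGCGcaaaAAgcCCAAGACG
Of the other genes, Nes lies on chromosome 3 (87971078 to 87980451), Stmn1 on chromosome 4 (134468320 to 134473843), Map1b on chromosome 13 (99421446 to 99516540) and Dcx on chromosome X (143855842 to 143933311). No other gene carried a stretch of at least 200 bases at 95% identity of Sox2, Sox11, Map1b, Nes or Dcx. Stmn1 shares 460 bases at 97.6% identity with 1 other annotated gene, and an exon of Stmn1 overlaps another gene on the same strand, so its counts are uncertain to that extent.

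None of the 8 genes passed the test between antibodies in edgeR's quasi-likelihood fit over 12401 genes, at a Benjamini-Hochberg false discovery rate of 0.05. Of all tested genes 0.306% were called higher and 0.339% lower. Without adjustment, 4 of the 8 had an edgeR p under 0.05 (3 above and 1 below), and 14.2% of all tested genes had such a p in either direction. The 2 Runx1 libraries lay above both IgG libraries for 5 of the 8 (24.1% of all tested genes) and below both for 1 (21.3%). Because the 8 were chosen with earlier results of these data known, these counts describe them and do not test them as a group.

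**Figure D1:**
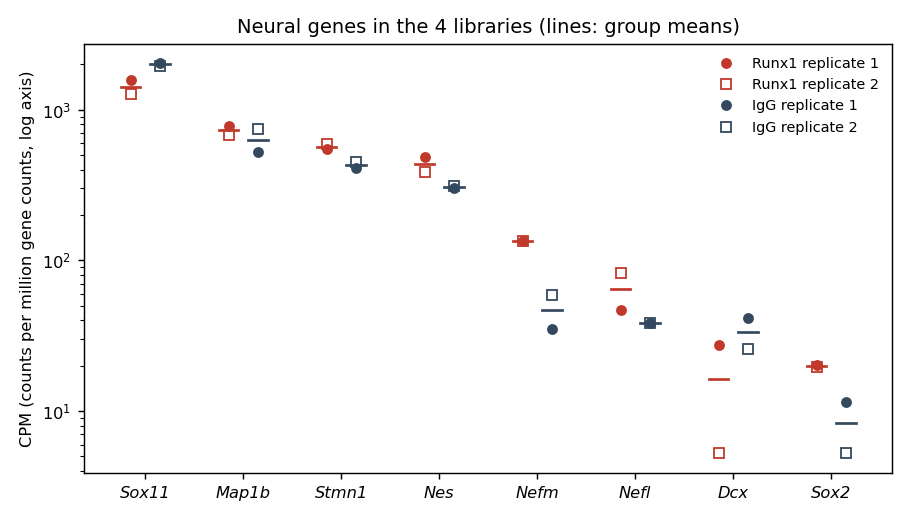
Level of each of the 8 genes (CPM, log axis) in the 4 libraries. Filled circles are replicate 1, open squares replicate 2, and short lines the group means. Sox11 lay between 1264 and 1584 CPM with the Runx1 antibody and between 1963 and 2026 CPM with IgG, while Dcx in Runx1 replicate 2 lay at 5.30 CPM, far under its other values. Levels on this scale are not divided by transcript length and are for comparison between libraries.

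Sox11, the SOX C factor of newly formed neurons, was counted 2654 and 2385 times in the Runx1 libraries, against 7786 and 4873 times in the IgG libraries. This is 1584 and 1264 CPM against 2026 and 1963 CPM. Both Runx1 libraries were below both IgG libraries, and the IgG pair lay close together. The log2 fold change of Sox11 was -0.52 ± 0.12 (SE, edgeR adjusted p = 0.105, unadjusted p = 0.00206, n = 2 and 2). The call depended on the method. DESeq2 called Sox11 lower (-0.54 ± 0.13, adjusted p = 0.00145; 3.7% of its tested genes were called lower), and so did limma-voom (-0.54 ± 0.089, adjusted p = 0.0100; 0.968% lower) and edgeR without the low-count filter (-0.56 ± 0.13, adjusted p = 0.00303; 1.46% lower). With spike-in scaling, described below, it was called too (-1.79 ± 0.30, edgeR adjusted p = 8.22e-04), as were 31.6% of tested genes. After offsets for the length and GC content of transcripts (the length and GC correction below), Sox11 stood at -0.20 ± 0.11 (edgeR adjusted p = 0.554). Leaving out any 1 of the 4 libraries, Sox11 was called lower, at -0.39 without Runx1 replicate 2 to -0.71 without Runx1 replicate 1, with edgeR adjusted p from 9.70e-05 to 0.0458. In each of these fits 1 antibody has a single library, which is assumed to vary like the pair of the other antibody. The share of all genes called lower in those fits was itself higher, from 0.6% without IgG replicate 2 and 0.632% without IgG replicate 1 to 1.55% without Runx1 replicate 2 and 2.48% without Runx1 replicate 1.

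Sox2, the SOX B1 factor that keeps neural progenitors in their state, was rare. It had 34 and 37 counts in the Runx1 libraries, against 44 and 13 in the IgG libraries, which is 20.3 and 19.6 CPM against 11.4 and 5.24 CPM. The Runx1 libraries agreed within 1.04-fold and lay above both IgG libraries, which differed from each other by 2.19-fold. The exact 95% Poisson interval of the 13 counts in IgG replicate 2 ran from 6.92 to 22.2 counts, which covers counting error only, since the amplified cDNA carries no molecular identifiers named in the labels. For Sox2 the log2 fold change was 1.21 ± 0.76 (edgeR adjusted p = 0.537). It stood at 1.87 ± 1.20 without IgG replicate 1 and at 0.76 ± 1.05 without IgG replicate 2 (edgeR adjusted p = 0.611 and 0.924).

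Nes encodes nestin, an intermediate filament protein of neural progenitors that growing vessels also make. It was counted 812, 732, 1165 and 772 times in the order Runx1 replicates 1 and 2 and IgG replicates 1 and 2, or 485 and 388 against 303 and 311 CPM. Both Runx1 libraries were above both IgG libraries. For Nes the log2 fold change was 0.48 ± 0.18 (edgeR adjusted p = 0.277, unadjusted p = 0.0253) and stayed at 0.47 ± 0.20 after the length and GC correction. Vim, the filament protein that nestin assembles with, was among the 38 genes called higher (620 and 676 against 276 and 351 CPM, log2 fold change 1.02 ± 0.17, edgeR adjusted p = 0.0481). Vim, also a general mesenchymal gene, was not called with the length and GC correction (0.95 ± 0.18, edgeR adjusted p = 0.104) or with DESeq2 size factors (1.02 ± 0.18, edgeR adjusted p = 0.0516). Nor was it called with a replicate block (1.03 ± 0.15, edgeR adjusted p = 0.114) or with spike-in scaling, where it stood at -0.23 ± 0.31. It was called higher by DESeq2 (1.00 ± 0.19, adjusted p = 2.00e-05), limma-voom (1.07 ± 0.16, adjusted p = 0.00637) and edgeR without the low-count filter (0.98 ± 0.19, adjusted p = 7.95e-05). Those fits called 2.56%, 0.823% and 1.01% of their tested genes higher. With 1 library left out, Vim ran from 0.84 to 1.19.

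Of the microtubule regulators, Stmn1 and Map1b were abundant and differed little. Stmn1 encodes stathmin, which binds free tubulin and is made by most dividing cells. It had 914 and 1113 counts in the Runx1 libraries, against 1583 and 1113 in the IgG libraries, or 546 and 590 against 412 and 448 CPM, and the groups did not overlap. Its log2 fold change was 0.37 ± 0.15 (edgeR adjusted p = 0.318, unadjusted p = 0.0374), and it went to -0.048 ± 0.15 after the length and GC correction. Map1b, which stabilises microtubules in growing axons, had 1313 and 1275 counts in the Runx1 libraries, against 2007 and 1835 in the IgG libraries. Its 784 and 676 CPM overlapped the 522 and 739 CPM with IgG. For Map1b the log2 fold change was 0.18 ± 0.18 (edgeR adjusted p = 0.735), 0.52 ± 0.18 after the correction, and -0.063 ± 0.21 without IgG replicate 1.

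Dcx, the doublecortin gene of migrating young neurons, differed more between the Runx1 replicates than the other 7 genes. It had 46 and 10 counts in the Runx1 libraries, against 160 and 64 in the IgG libraries. On the CPM scale this is 27.5 and 5.30 against 41.6 and 25.8, so Runx1 replicate 1 lay between the IgG libraries and Runx1 replicate 2 lay 5.18-fold below replicate 1. The log2 fold change was -1.08 ± 0.79 (edgeR adjusted p = 0.615). Dcx stood at -0.35 ± 0.68 without Runx1 replicate 2 and at -2.72 ± 0.88 without Runx1 replicate 1 (edgeR adjusted p = 0.883 and 0.0792), so that its size rests on 1 library with 10 counts.

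The neurofilament subunits Nefm and Nefl, which give mature axons their calibre, were both above IgG in both Runx1 libraries. Nefm had 224 and 253 counts in the Runx1 libraries, against 135 and 147 in the IgG libraries, although the IgG libraries were the deeper ones. Its levels were 134 and 134 CPM against 35.1 and 59.2 CPM. The log2 fold change of Nefm, the largest of the 8 in size, was 1.48 ± 0.36 (edgeR adjusted p = 0.124, unadjusted p = 0.00302). Like Sox11, Nefm was called by DESeq2 (1.46 ± 0.41, adjusted p = 0.0100; 2.56% of its tested genes were called higher) and by limma-voom (1.59 ± 0.35, adjusted p = 0.0448; 0.823% higher), as well as by edgeR without the low-count filter (1.44 ± 0.37, adjusted p = 0.00674; 1.01% higher). It stood at 1.23 ± 0.37 after the length and GC correction and was not called there (edgeR adjusted p = 0.275). Nefl had 78 and 155 counts against 148 and 96, or 46.6 and 82.1 CPM against 38.5 and 38.7 CPM. The IgG libraries were almost equal and the Runx1 libraries 1.76-fold apart. The log2 fold change of Nefl was 0.71 ± 0.45 (edgeR adjusted p = 0.539), with 0.22 ± 0.58 without Runx1 replicate 2 and 1.03 ± 0.52 without Runx1 replicate 1. There were 2.87 and 1.63 Nefm counts per Nefl count in the Runx1 libraries, against 0.912 and 1.53 in the IgG libraries. How the shared exon shown above bears on these 2 genes was not tested.

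**Figure D2:**
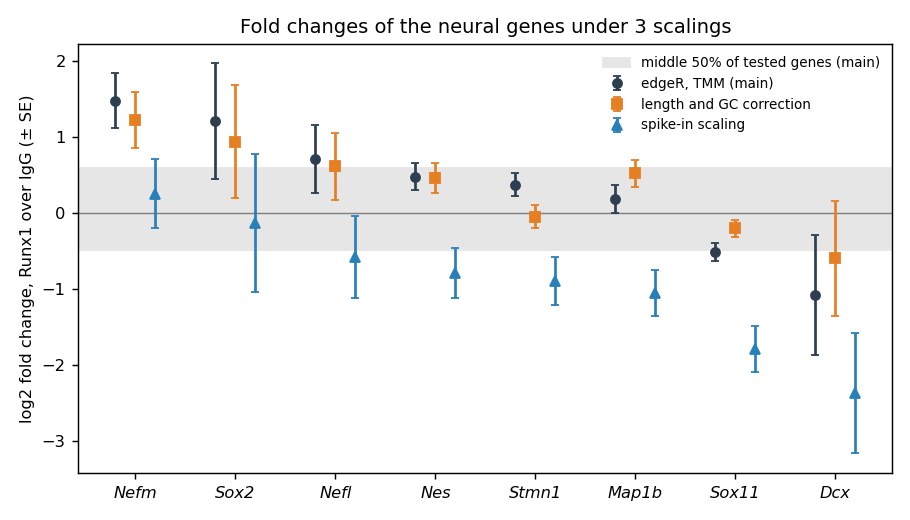
Log2 fold change of each gene, Runx1 antibody over IgG, with its SE, in edgeR with TMM normalization, after the length and GC correction, and scaled to the spike-in RNAs. The grey band holds the middle 50% of all tested genes with TMM (-0.48 to 0.59). Nefm, Sox2 and Nefl lie above the band and Sox11 and Dcx below it, while under the spike-in scaling Nefm alone stays above 0.

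As a group the 8 genes took a similar part of both kinds of library, with shares that overlapped. Their counts summed to 0.363% and 0.316% of the gene total in the Runx1 libraries, against 0.339% and 0.359% in the IgG libraries. Set against the 20 endothelial markers in the same library, the sum was 1.64 and 1.67 times as large in the Runx1 libraries, against 1.59 and 1.76 times in the IgG libraries. The make-up of that sum differed. Sox11 supplied 43.7% and 40.0% of it in the Runx1 libraries, against 59.8% and 54.7% in the IgG libraries. Nefm, Nefl and Dcx together stood at 208 and 221 CPM against 115 and 124 CPM, a difference carried mainly by Nefm and opposite to that of Dcx, while a separate list of 22 neuron genes summed to 1.02 times its IgG level. The median log2 fold change of the 8 was 0.42, with 6 above 0 and 2 below, against a median of 0.03 over all tested genes. That comparison is description only, since the 8 were chosen with earlier results of these data known. All these directions are relative to the other genes of a library. The 92 spike-in RNAs drew 596 and 713 counts in the Runx1 libraries, against 494 and 434 in the IgG libraries. This is 0.0356% and 0.0378% of all counts against 0.0129% and 0.0175%, a difference whose cause was not tested. Scaled to the spike-in RNAs, the median gene stood at -1.25, and Nefl, Sox2, Map1b, Stmn1 and Nes were below 0. Relative to that median gene, Nefm stood at 1.51, Sox2 at 1.12, Nefl at 0.68, Nes at 0.46, Stmn1 at 0.36, Map1b at 0.20, Sox11 at -0.54 and Dcx at -1.12 on the log2 scale.

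Per length of the longest annotated transcript, levels fell into a steep order that was nearly the same with both antibodies. With the Runx1 antibody, Stmn1 led at 535 ± 29.5 CPM per kilobase (mean ± SD, n = 2), followed by Sox11 at 171 ± 27.3, Nes at 71.2 ± 11.2, Map1b at 61.8 ± 6.47, Nefm at 36.4 ± 0.069, Nefl at 19.0 ± 7.44, Sox2 at 9.70 ± 0.24 and Dcx at 1.80 ± 1.73. Of these neighbours only Nes and Map1b had libraries that overlapped. With IgG, Stmn1 stood at 406 ± 24.4 CPM per kilobase, Sox11 at 240 ± 5.32, Map1b at 53.4 ± 13.0, Nes at 50.1 ± 0.91, Nefm at 12.8 ± 4.63, Nefl at 11.4 ± 0.035, Sox2 at 4.06 ± 2.14 and Dcx at 3.71 ± 1.23. There the pairs Map1b and Nes, Nefm and Nefl, and Sox2 and Dcx overlapped. The lead of Stmn1 and part of the order below it depended on the length used. Per kilobase of all its annotated exons, Stmn1 stood at 224 ± 13.4 CPM with IgG, under Sox11 at 240 ± 5.32, and at 295 ± 16.3 CPM with the Runx1 antibody, above Sox11 at 171 ± 27.3. By that length with IgG, Nefl (11.4 ± 0.035) lay above Nefm (8.16 ± 2.95) and Nes (47.9 ± 0.87) above Map1b (39.8 ± 9.69). With the Runx1 antibody Nefm stood at 23.2 ± 0.044, between the Nefl libraries at 13.8 and 24.3.

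The 2 genes below 0, Sox11 and Dcx, have the longest 3′ untranslated regions of the 8 in their longest transcripts (6960 and 7712 bases) and the lowest GC content (46.5% and 40.6%). Nefm and Nes have the highest GC content (57.8% and 55.5%). For Nefm, length and GC content are those of the longest of its 2 annotated transcripts (3680 bases, 1410 of them coding). All exons of Nefm cover 5782 bases, and which transcript was present was not tested. The correlations and the correction below rest on that choice for Nefm. Over the 8 genes the fold change went with GC content (Pearson r = 0.84) and against the log of transcript length (r = -0.56), a description of 8 points measured in the same 4 libraries. Over 12396 tested genes with a transcript sequence the same correlations were 0.21 and -0.18. A correction for both, fitted in each library over all genes, brought Sox11 from -0.52 to -0.20 and Stmn1 from 0.37 to -0.048 and took Map1b from 0.18 to 0.52. Dcx went from -1.08 to -0.60, which is less than its SE, and Nefm, Nefl, Sox2 and Nes stayed within their SE. None of the 8 was called after it (0.186% of tested genes were called higher and 0.0323% lower).

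**Figure D3:**
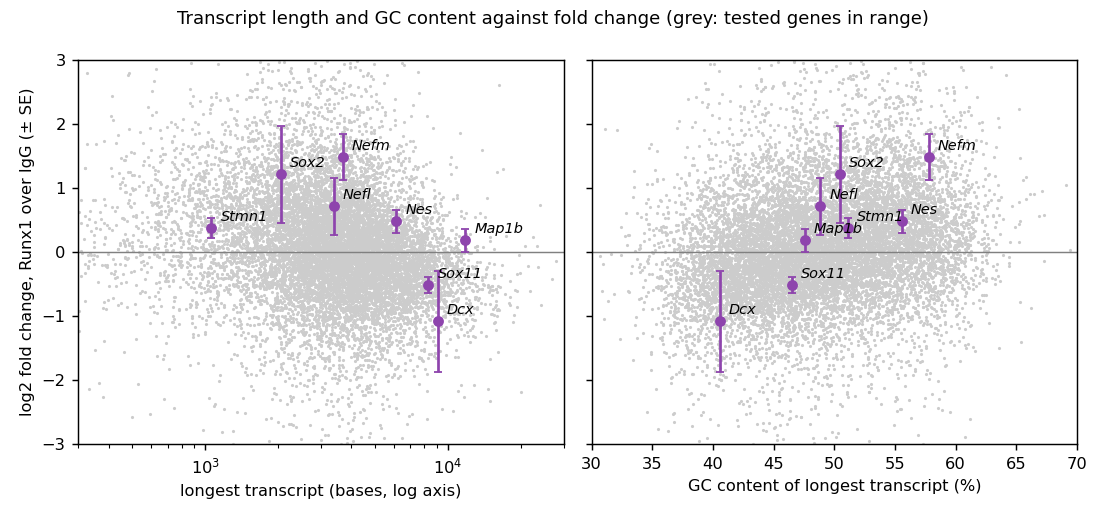
Log2 fold change against the length (left, bases, log axis) and the GC content (right, percent) of the longest transcript, for the 8 genes with SE (purple) and the tested genes in range (grey). Dcx and Sox11 lie at the low end of GC content and below 0, and Nefm and Nes at the high end and above 0.

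The close relatives of the 8 genes were mostly too rare to test or did not differ detectably. Of 19 relatives in the same protein families 12 were tested, and Vim alone was called, as higher. Beside Nefm and Nefl, the heavy neurofilament gene Nefh had 0 counts in 3 libraries and 19 in IgG replicate 1. The gene of the filament protein alpha-internexin, Ina, had 107 counts in IgG replicate 1 and between 8 and 23 in the others (log2 fold change -0.64 ± 1.02, edgeR adjusted p = 0.855), and peripherin (Prph) had at most 4. Of the other SOX B1 genes, Sox1 had 49 counts in IgG replicate 1 against 0 to 3 elsewhere, and Sox3 had at most 9 counts, in IgG replicate 2. The SOX C genes Sox4 (0.48 ± 0.42) and Sox12 (0.17 ± 0.36) had positive log2 fold changes where that of Sox11 was negative, and neither passed (edgeR adjusted p = 0.685 and 0.896). Among stathmins, the neuronal gene Stmn2 had 30 and 68 counts against 19 and 60 (0.88 ± 0.84, edgeR adjusted p = 0.718), Stmn3 stood at -0.21 ± 1.30, and Stmn4 had at most 1 count. The MAP1 genes Map1a (0.22 ± 0.83), Map1s (0.12 ± 0.37) and Map1lc3b (0.53 ± 0.32) did not pass, nor did the doublecortin-like kinases Dclk1 (-0.54 ± 0.32) and Dclk2 (0.11 ± 0.45) or the filament gene Synm (-0.66 ± 0.98). Map1lc3a had 1 to 11 counts, and Dclk3 had 32 counts in IgG replicate 1 and at most 1 elsewhere.

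A wider set of 62 neural genes held 38 that could be tested, of which edgeR called 0, with 19 on each side of 0 and a median of 0.04. An unadjusted edgeR p under 0.05 was reached by 3 of the 38, all below 0, while 14.2% of all tested genes had such a p in either direction. These 3 are therefore not read as a result about neural genes. DESeq2 and limma-voom also called 0. The summed level of the 62 genes ran from 2247 to 2471 CPM. Ebf3 alone supplied 399 and 342 CPM in the Runx1 libraries, against 400 and 411 CPM in the IgG libraries. Which cells this RNA came from was not tested. Among 17 tested neuron genes the median was 0.08. The lowest p there belonged to Map2, a dendritic microtubule protein (90.1 and 59.3 against 140 and 145 CPM, log2 fold change -0.96 ± 0.32, edgeR adjusted p = 0.223), and Elavl4, a neuronal RNA-binding protein (18.5 and 28.1 against 67.4 and 51.6 CPM, -1.38 ± 0.48, edgeR adjusted p = 0.251). The neuronal tubulin gene Tubb3 stood at 41.2 and 75.8 against 31.5 and 33.0 CPM (0.83 ± 0.48, edgeR adjusted p = 0.495), and the splicing factor gene Celf3 at -1.56 ± 1.09. Of 5 tested proneural genes the factor Ebf2 had the lowest p (-1.04 ± 0.42, edgeR adjusted p = 0.314), with Nhlh2 at 0.79 ± 0.69, Hes6 at 0.52 ± 0.53 and Ebf3 at -0.16 ± 0.17, and the median was -0.16. Of 10 tested progenitor genes, median 0.11, Fabp7 stood at 1.53 ± 1.23, Sox21 at -1.19 ± 1.01, Prom1 at -0.45 ± 0.43 and Pax3 at 0.19 ± 0.22. Of 6 tested neural crest and glial genes, median -0.23, Tfap2a stood at -2.04 ± 1.17, Erbb3 at 0.80 ± 0.62 and Tfap2b at 0.32 ± 0.51. None of these passed. Of the 62 genes, Olig2, Dll3, Lhx3 and Mnx1 had 0 counts in every library, which at these depths allows up to between 0.781 and 1.79 CPM. Other genes of the same lists were counted. Nkx2-2 had 18 and 4 counts in the Runx1 libraries, against 12 and 7 in the IgG libraries, and Isl1 had 26 and 9 against 60 and 25. The genes at 0 counts therefore do not show that a cell type was absent.

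**Figure D4:**
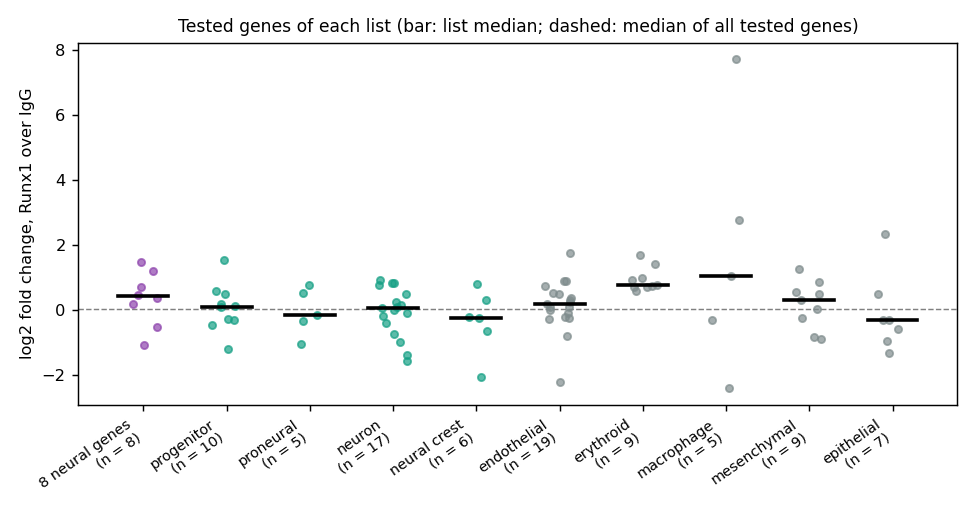
Log2 fold change, Runx1 antibody over IgG, of the tested genes in each list. Each point is a gene, the bar is the list's median, and the dashed line is the median of all tested genes (0.03). The 4 neural lists have medians between -0.23 and 0.11, the 8 genes described here 0.42, the endothelial list 0.19 and the erythroid list 0.78. All lists were chosen with earlier results of these data known, so the medians are description only.

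Beside these, the median log2 fold change was 0.19 for 19 tested endothelial genes, 0.32 for 9 mesenchymal, -0.30 for 7 epithelial, 0.78 for 9 erythroid and 1.07 for 5 macrophage genes, and none of them was called in edgeR. At an unadjusted edgeR p under 0.05 were 1 of the 19 endothelial genes (lower) and 4 of the 9 mesenchymal genes (2 higher and 2 lower). So were 1 of 7 epithelial, 4 of 9 erythroid and 2 of 5 macrophage genes, all higher. Of all tested genes 14.2% had such a p in either direction. DESeq2, which called 2.56% of its tested genes higher, called the embryonic globin genes Hba-x and Hbb-y and the macrophage receptor gene Csf1r higher. On these lists limma-voom called 0. Csf1r stood at 11.9 and 144 against 12.5 and 9.67 CPM, so that Runx1 replicate 2 alone was high. The endothelial receptor gene Tek stood at 127 and 76.8 against 185 and 162 CPM (-0.81 ± 0.30, edgeR adjusted p = 0.282), and Cdh5 at 100.3 and 80.5 against 88.5 and 66.1 CPM (0.19 ± 0.34, edgeR adjusted p = 0.868). The summed erythroid level was 888 and 914 CPM in the Runx1 libraries, against 518 and 469 CPM in the IgG libraries, and that of the macrophage list 128 and 228 against 102 and 87.0 CPM. The part of these levels in the values of the 8 neural genes was not tested.

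For the 6 of these genes with at least 50 counts in each library, the genes with the most similar levels were looked for. Likeness was measured as the root mean square difference of log2(CPM + 1) over 4 libraries. Nearest to Stmn1 was Tshz1 (0.099), nearest to Nes were Eef1b2 (0.097) and Mcm4 (0.12), and nearest to Nefl were Msx1 (0.090) and Prelid3b (0.11). Nearest to Sox11 were Cbx5 (0.21) and Ankrd10 (0.25). Nefm was closest to Ctsb (0.19) and Ubxn4 (0.20), and Map1b to Ankrd17 (0.16) and Palld (0.19). Within 0.1 lay 1 named protein-coding gene each for Nefl, Stmn1 and Nes and 0 for Nefm, Sox11 and Map1b. Whether likeness over 4 libraries goes with any link between the genes was not tested.

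Since the antibody was against a DNA-binding factor, the promoters were searched for its core motif TGTGGT on either strand. RefSeq promoters (GRCm38.p6, 250 bases before to 50 after the start) were matched for 5 of the 8 genes, Sox2, Sox11, Map1b, Nes and Dcx. These letters were in none of them, 0 of 5 genes, and in 16.8% of 32851 promoters. So few genes cannot be read against that share, and other forms of the motif were not searched. Nefm, Nefl and Stmn1 were not matched.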

How the data were processed

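RIP-seq libraries of sorted Cd31+ cells were compared, 2 per antibody. The authors deposited 1 table of raw, whole-number counts for each Ensembl gene. Trimmomatic 0.36, Salmon 1.1.0, STAR 2.7.3a and mm10 are named in the submitters' processing notes, with no role stated. Not given in the sources used here are the annotation, the strand setting and any filter, nor whether the counts are rounded estimates, which would divide reads between overlapping genes. Of 55573 identifiers 55480 were in GENCODE M21 (mm10). The 92 spike-in rows stayed out of gene totals.

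All genes were fitted in edgeR 4.0.16 (R 4.3.3; quasi-likelihood, TMM, filterByExpr with a minimum count of 10 and total of 15, no block, two-sided), a step checked on simulated data. Alternatives were DESeq2 size factors, DESeq2 1.42.0, limma-voom (limma 3.58.1), no filter, each library left out, a replicate block, spike-in scaling, and offsets from natural splines (5 degrees of freedom) of length and GC content. SEs are those implied by the test statistic. Copies were sought with blastn 2.17.0. An exact permutation test of 2 against 2 libraries cannot go below p = 0.333 and was not used. Intervals and floors cover counting error only.

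The members, lists, tests and alternatives were chosen with earlier results of these data known. Named genes are the members, their family relatives, the 4 lowest p in each neural list, 4 endothelial markers and the 2 nearest genes per member; 2 genes that this rule names are not reported here. Pdgfra, Col3a1, Csf1r, Hba-x, Hbb-y, Nkx2-2 and Isl1 were named after their values were seen.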

Additional observations from a re-analysis of the deposited data

How the results depend on the processing

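The counts of all genes called, 38 higher and 42 lower, became 35 and 36 with DESeq2 size factors, 224 and 325 without the filter, 216 and 312 with DESeq2, 102 and 120 with limma-voom, 23 and 4 with the length and GC correction, and 19 and 3914 with spike-in scaling. With each library left out in turn they ran from 95 to 248 higher and from 81 to 352 lower. With a replicate block 2 were higher and 0 lower (no member called). No effect shared by libraries of the same replicate number was seen, as the deviations of replicate 1 from the group means correlated at 0.0044 between antibodies. Such a value cannot show that the libraries were handled separately. Nothing in the labels says that the numbers pair them.

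Of the members, 0 were called higher and 0 lower. Sox11 was called lower in 8 of 11 alternatives (4 of the 8 with a library left out, where 1 antibody has a single library; all but the DESeq2 size factors, the block and the length and GC correction) and Nefm higher in 3 of 11, which made 1 member higher and 1 lower without the filter, with DESeq2 and with limma-voom. With a library left out, 0 to 0 members were higher and 1 to 1 lower. Under the spike-in scaling 4 were called lower (Sox11, Dcx, Map1b and Stmn1), as were 31.6% of all tested genes, with the median gene at -1.25. Relative to that median gene, Map1b (0.20) and Stmn1 (0.36) lay above it, and Sox11 (-0.54) and Dcx (-1.12) below. On the spike-in scale itself, Nefl (-0.58), Sox2 (-0.13), Map1b (-1.05), Stmn1 (-0.90) and Nes (-0.79) turned negative in log2 fold change. Map1b also did so without IgG replicate 1 (-0.063, against 0.44 without IgG replicate 2, the range over left-out libraries) and Stmn1 with the length and GC correction (-0.048). The cause was not tested. Without Stmn1 and Map1b the members summed to 0.209% of the gene total with the Runx1 antibody and 0.243% with IgG, from 0.339% and 0.349%. Removing mitochondrial and haemoglobin genes from the total moved no member's difference between antibodies by more than its spread. Depth limits Sox2 and Dcx most, with as few as 13 and 10 counts.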
